A study of Homo sapiens with 6 samples.

Results

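The nuclear-encoded subunits of the mitochondrial respiratory chain and ATP synthase were measured in Panc-1, a human epithelial line from a pancreatic cancer, after co-culture with fibroblasts. They were chosen by gene symbol: 184 of the 58735 genes in the count table carried an NDUF, SDH, UQCR, COX4 to COX8 or ATP5 subunit symbol, and removal of 95 pseudogenes and antisense genes left 89 members. These comprise 38 genes of complex I, 4 of complex II, 9 of complex III, 17 of complex IV and 21 of complex V. In the CAF-PAI-1 group, Panc-1 cells of wild-type genotype were kept for 72 h with cancer-associated fibroblasts (CAF) overexpressing PAI-1, an inhibitor of plasminogen activators (3 libraries). The CAF group was the same line kept for 72 h with CAF alone, whose columns are headed NC, an abbreviation not explained in the labels (3 libraries). RNA selected on oligo-dT was sequenced in all 6 libraries, and the labels call them biological replicates without saying whether they were separate cultures. The p-values below therefore reflect the spread between the libraries, which may be technical. Both groups contain fibroblasts as partners and neither is Panc-1 alone. The vector, the source of the CAF and the way both cell types were kept apart are not given in the sources used here, and the extraction text of the labels names another line, Cal27, with Stattic or DMSO.

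The respiratory chain passes electrons from NADH through complex I, and from succinate through complex II, to ubiquinone, then through complex III and cytochrome c to complex IV, which reduces oxygen. The proton gradient built by complexes I, III and IV drives complex V, the ATP synthase. Most subunits are encoded in the nucleus and imported, a few of the hydrophobic core subunits are encoded in mitochondrial DNA, and complex II is wholly nuclear-encoded.

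Library totals ranged from 13628508 to 16006880 counts, and the members took between 0.625% and 0.697% of counts with CAF-PAI-1 and between 0.678% and 0.713% with CAF. CPM here means counts scaled to library size with edgeR's TMM factors, and is the unit of all levels below, given with the SD over 3 libraries where a mean is printed. The 6 epithelial markers, dominated by the keratins KRT8, KRT18 and KRT19, summed to between 2046 and 2308 CPM with CAF-PAI-1 and between 1781 and 1891 CPM with CAF. EPCAM stood at 8.10 CPM with CAF-PAI-1 and 7.06 CPM with CAF, and CDH1 at 1.01 CPM with CAF-PAI-1 and 1.67 CPM with CAF, without overlap for CDH1 (log2 fold change -0.73) and with neither called. Of 12 fibroblast markers, 9 lay under 1 CPM. Among these 9, POSTN, FAP, PDGFRB, PDGFRA, LUM, DCN and COL1A2 held 9 counts in all with CAF-PAI-1 and 13 with CAF. The whole fibroblast list summed to between 247 and 280 CPM with CAF-PAI-1 and between 175 and 212 CPM with CAF, nearly all of it COL1A1, which rose (log2 fold change 0.47), while FBN1 fell by 0.84 on the log2 scale. The third tested marker of that list was not called and stood at 0.31, the median of the 3 tested. In bulk RNA, fewer cells of a type and less RNA per cell cannot be told apart. CAF-PAI-1 replicate 2 stood apart in mitochondrial transcripts, which took 3.78% of its counts, against 4.76% and 5.12% in the other CAF-PAI-1 libraries and 5.53% to 5.92% in the CAF libraries.

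Nuclear-encoded subunit transcripts differed little between the groups. Of the 82 members that passed the filter on low counts, 2 were called higher with CAF-PAI-1 (NDUFB9 and COX7A2L) and 3 were called lower (NDUFA4, NDUFA2 and ATP5IF1), at a Benjamini-Hochberg adjusted p under 0.05 of edgeR's quasi-likelihood test over all genes. Among all 14960 genes tested, 17.2% were called higher and 15% lower, 32.2% together, against 6.10% of the members. The median log2 fold change of the tested members was 0.0063 and that of all tested genes was -0.0015, with 42 members above 0 and 40 below. The members' fold changes ran from -0.39 for COX6B2 to 0.30 for COX7A1, both near 1 or 2 CPM, and from -0.26 to 0.23 among the 77 members with a mean of at least 10 CPM. Their median absolute log2 fold change was 0.091, against 0.206 for all tested genes. Among the 9526 genes of 10 to 1000 CPM, where standard errors were alike (median 0.072 for members and 0.077 for all), it was 0.083 for the 77 members in that range and 0.165 for all. In that range 23.3% of all genes were called higher and 18.2% lower, while the members in it numbered 2 higher and 3 lower.

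The intervals give the size of change left possible for each gene under TMM scaling, and do not include uncertainty in the scaling itself. TMM factors were 0.970 to 0.986 in the CAF-PAI-1 libraries and 1.016 to 1.032 in the CAF libraries. With library size alone the median log2 fold change of all tested genes was -0.068. The 95% interval of the fold change stayed within 1.5-fold in either direction for 77 of the 82 tested members (93.9%), against 60.6% of all tested genes, and within 1.2-fold for 47 members (57.3%), against 19.7% of all. The 5 members with wider intervals were NDUFA13, NDUFV2, UQCRHL, COX6B2 and COX7A1, all with a mean under 10 CPM. No member's estimate passed 1.5-fold, against 12.5% of all genes, and 2 passed 1.2-fold (COX6B2 and COX7A1), against 40% of all. Groups did not overlap for 3 members higher and 8 lower with CAF-PAI-1, or 13.4% of members, where 22.3% of all genes were higher and 21.1% lower without overlap, 43.4% together. At an unadjusted p under 0.05 there were 14 members (17.1%), against 41.3% of all genes.

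The number of called members depended on scaling and on single libraries. With library size alone it was 0 higher and 15 lower, and all genes shifted too, to 12.3% higher and 21.3% lower. Upper-quartile scaling gave 2 higher and 7 lower, where 15.5% of all genes were called higher and 16.7% lower. Without CAF-PAI-1 replicate 1 there were 5 higher and 1 lower, and without CAF-PAI-1 replicate 2 there were 2 higher and 13 lower, where 15.8% of all genes were higher and 14.4% lower. Leaving out CAF-PAI-1 replicate 3 or CAF replicate 3 gave 2 higher and 1 lower, and leaving out CAF replicate 2 gave 2 higher and 0 lower. Over the 6 fits with a library left out, 14.0% to 15.8% of all genes were called higher and 11.95% to 14.4% lower.

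**Figure D1:**
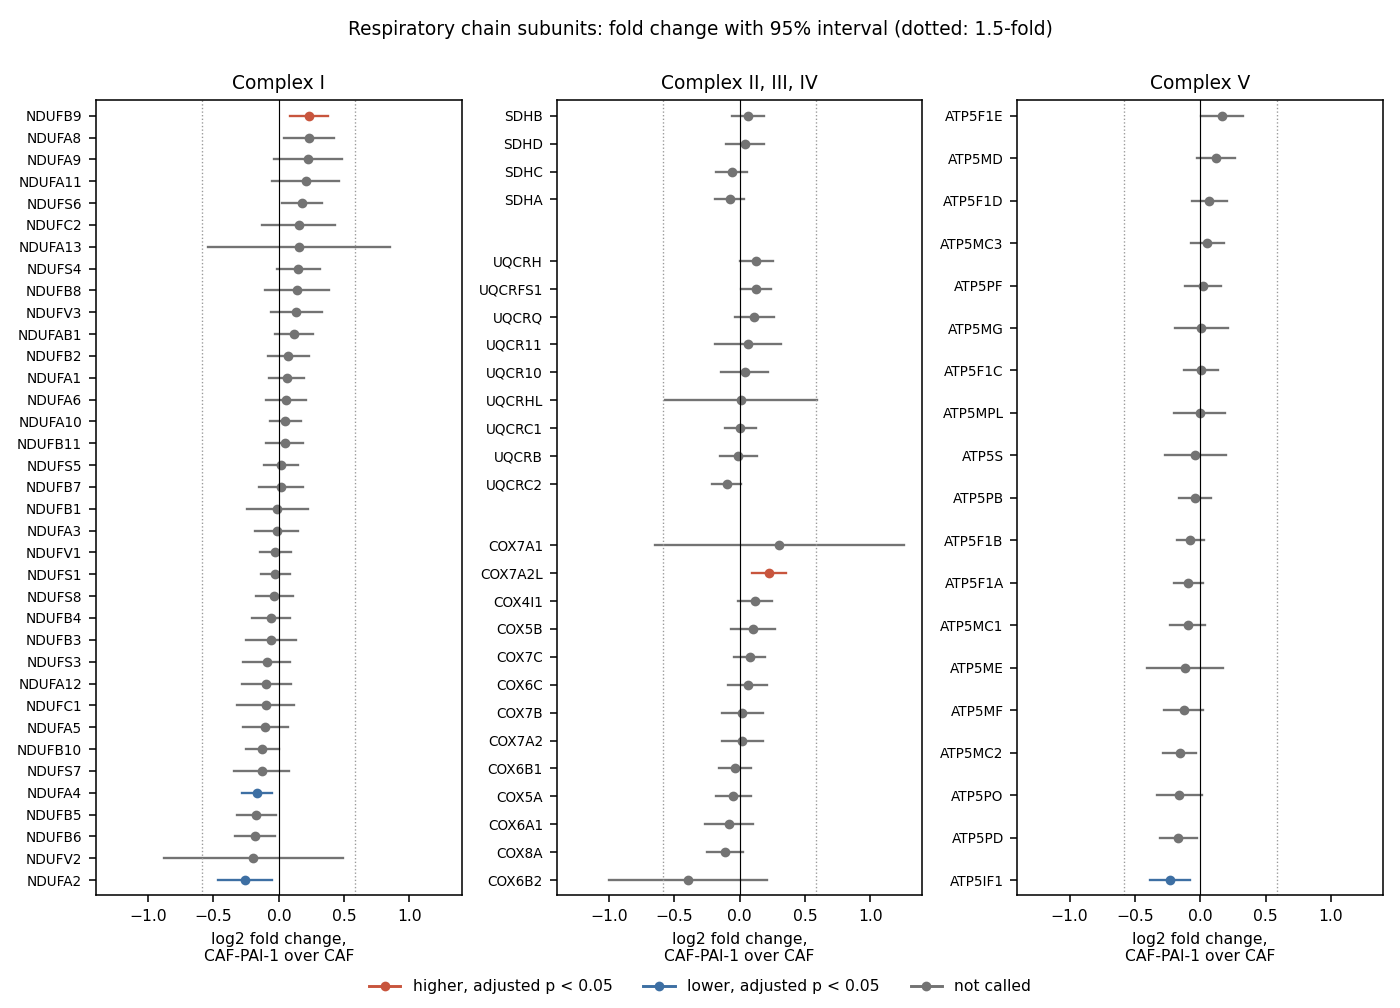
Log2 fold change of CAF-PAI-1 over CAF (horizontal axis) for the tested members, of which 1 is left out, sorted within complexes, with bars for the 95% interval and dotted lines at 1.5-fold. The 5 called members lie between -0.26 and 0.23, and only the 5 members under 10 CPM have intervals that reach beyond the dotted lines.

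Complex I, the NADH dehydrogenase, had 37 tested members with a median log2 fold change of -0.0027. The 7 nuclear-encoded core subunits, which carry the flavin and iron-sulfur clusters, included no called gene. All 7 had log2 fold changes below 0, with a median of -0.033. The lowest was -0.19, for NDUFV2, which averaged 1.60 CPM and had a 95% interval of -0.88 to 0.49. NDUFS1, the largest of the iron-sulfur subunits and the complex I member with the highest CPM, stood at 177, 168 and 174 CPM in CAF-PAI-1 replicates 1 to 3 and at 173, 182 and 175 CPM in CAF replicates 1 to 3. The groups overlapped, and the log2 fold change was -0.03 ± 0.054 (SE), with a 95% interval of -0.14 to 0.083. The 30 tested accessory subunits, which surround the core, had a median of 0.047, with 18 above 0 and 12 below. They included the 3 called genes with an NDUF symbol.

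NDUFB9 (ENSG00000147684, chr8:124539101-124580648), an accessory subunit of the membrane arm, had 83.7, 101 and 104 CPM with CAF-PAI-1, against 85.1, 83.7 and 76.6 CPM with CAF. CAF-PAI-1 replicate 1 lay within the range of the CAF libraries, while the other two lay above it. On the log2 scale it rose by 0.23 ± 0.071 (SE; adjusted p = 0.0113, edgeR), and the call was lost with library size alone and without CAF-PAI-1 replicate 3 or CAF replicate 3. Exons of TATDN1 and MTSS1 on the other strand cover 21.0% of its exonic bases, and the labels do not say whether the counting used strand.

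NDUFA2 (ENSG00000131495, chr5:140638740-140647785), an accessory subunit of the matrix arm, had 18.1, 23.8 and 23.0 CPM with CAF-PAI-1, against 25.4, 27.0 and 25.3 CPM with CAF. All 3 CAF-PAI-1 libraries lay below all 3 CAF libraries, with replicate 1 the lowest. It fell by 0.26 ± 0.10 on the log2 scale (adjusted p = 0.0460, edgeR), and 7 of 16 alternatives lost the call, among them DESeq2 and the removal of CAF-PAI-1 replicate 1 or any 1 CAF replicate. Exons of TMCO6 and IK on the other strand cover 13.0% of its exonic bases. Just short of the threshold in the same complex stood NDUFA8, an accessory subunit, at 0.23 (adjusted p = 0.0608, edgeR), and NDUFB5 and NDUFB6 of the membrane arm at -0.17 and -0.18 (adjusted p = 0.0667 and 0.0670, edgeR).

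NDUFA4 (ENSG00000189043, chr7:10931951-10940256) was first described with complex I and is now assigned to complex IV. Its level was 114, 112 and 115 CPM with CAF-PAI-1, against 124, 132 and 127 CPM with CAF. The groups did not overlap, and the 3 CAF-PAI-1 libraries lay within 3 CPM of each other. It fell by 0.17 ± 0.057 on the log2 scale (10.9% lower; adjusted p = 0.0240, edgeR), and the call was lost without CAF-PAI-1 replicate 3, without CAF replicate 2 or 3 and with no filter. Its paralogue NDUFA4L2, known as a hypoxia-inducible gene and outside the symbol rule, had 3.45, 4.50 and 3.75 CPM with CAF-PAI-1, against 2.25, 3.28 and 2.01 CPM with CAF. It rose by 0.62 ± 0.24 on the log2 scale (adjusted p = 0.0413, edgeR), without overlap between groups, but lost the call in 7 of 15 alternatives. NDUFA4L2 made up 2.94%, 3.86% and 3.16% of the counts of the pair with CAF-PAI-1 and 1.78%, 2.42% and 1.56% with CAF. The share was higher in all 3 CAF-PAI-1 libraries than in any CAF library.

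**Figure D2:**
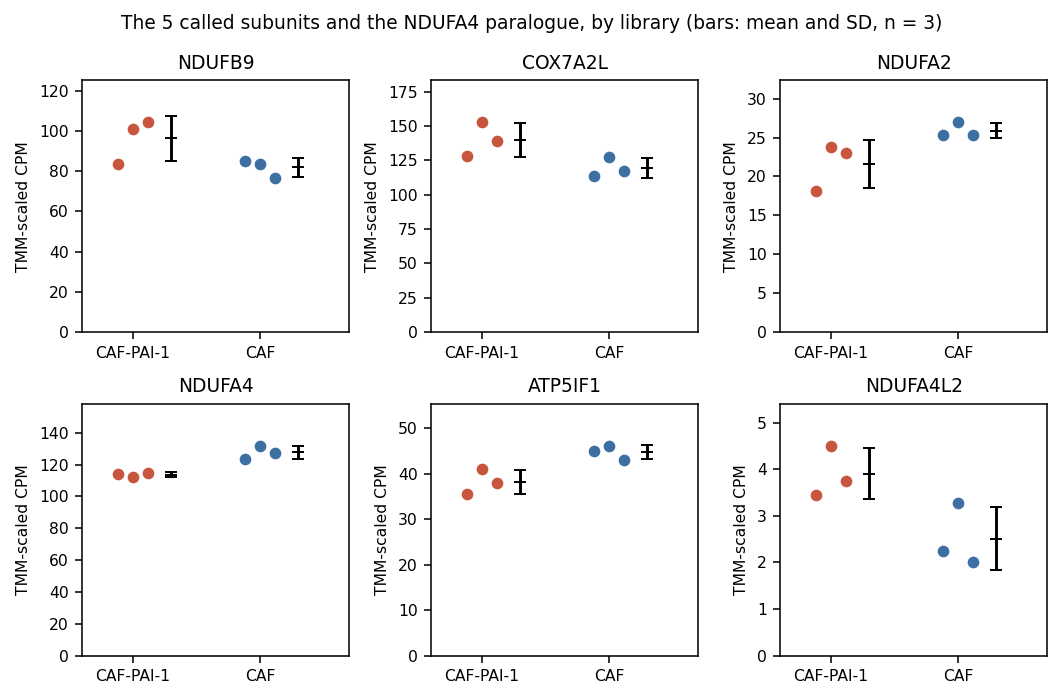
TMM-scaled CPM in each library (points, replicates 1 to 3 from left to right) with mean and SD beside them, for the 5 called members and NDUFA4L2, each panel starting at 0. The groups overlap for NDUFB9 alone, and NDUFA4L2 stays under 5 CPM where NDUFA4 stands above 110.

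Complex II, succinate dehydrogenase, also belongs to the citric acid cycle, and none of its 4 subunits was called. SDHA, the flavoprotein, had 144, 151 and 151 CPM with CAF-PAI-1, against 157, 157 and 156 CPM with CAF, without overlap, and a log2 fold change of -0.07 ± 0.055 (adjusted p = 0.324, edgeR). SDHB, the iron-sulfur subunit, averaged 108 ± 5.74 CPM with CAF-PAI-1 and 103 ± 3.07 CPM with CAF (log2 fold change 0.06). The membrane anchors SDHC and SDHD had log2 fold changes of -0.06 and 0.04. All 4 intervals lay within -0.19 and 0.19 on the log2 scale. SDHA has 3 pseudogene entries in the table that held 2071 counts over the 6 libraries, against 13799 for SDHA itself, and the sources used here do not say how reads shared by such copies were assigned.

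Complex III, the cytochrome bc1 complex, had 9 tested members, a median log2 fold change of 0.038 and no called member. UQCRC2, a core scaffold protein and its member with the highest CPM, averaged 206 ± 8.52 CPM with CAF-PAI-1 and 220 ± 10.2 CPM with CAF, with overlap, at -0.10 on the log2 scale, the lowest value of the complex. The highest values were those of UQCRH, the hinge protein, at 0.13 and UQCRFS1, the Rieske iron-sulfur protein, at 0.13. UQCRFS1 had 136, 141 and 138 CPM with CAF-PAI-1, against 126, 129 and 124 CPM with CAF. These groups did not overlap, but the adjusted p was 0.0839 (edgeR). UQCRHL, a near copy of UQCRH, held 1.73% of the counts of that pair with CAF-PAI-1 and 1.86% with CAF.

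Complex IV, cytochrome c oxidase, had 13 tested members and a median log2 fold change of 0.023. Its member called higher, COX7A2L (ENSG00000115944, chr2:42333546-42425088), is a COX7A-related protein that joins complexes III and IV in supercomplexes. Its level was 128, 153 and 139 CPM with CAF-PAI-1, against 114, 128 and 118 CPM with CAF. The lowest CAF-PAI-1 library lay just above the highest CAF library. COX7A2L rose by 0.23 ± 0.064 on the log2 scale (16.9% higher; adjusted p = 0.0062, edgeR), and of 16 alternatives library size alone lost the call, with an adjusted p of 0.0549. COX4I1, which had the highest CPM of the complex, had 160, 201 and 180 CPM with CAF-PAI-1, against 165, 170 and 164 CPM with CAF. CAF-PAI-1 replicate 1 lay below all CAF libraries and the other two above them, and the log2 fold change of 0.12 ± 0.063 was not called. Without CAF-PAI-1 replicate 1 it was called, at 0.19 (adjusted p = 0.0169, edgeR).

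Several complex IV subunits have tissue-specific isoforms, and the widely expressed ones held nearly all counts in both groups. COX4I2, the lung isoform in humans, COX8C and COX7B2 had 0 counts in all 6 libraries, which by counting error alone allows up to 3 counts, or 0.182 to 0.218 CPM, in each library. COX6A2, the heart and muscle isoform, had 3 counts with CAF-PAI-1 and 1 with CAF, against 1647 and 1837 of COX6A1. COX6B2, the testis isoform, held 1.30% of the COX6B counts with CAF-PAI-1 and 1.65% with CAF. COX7A1, the muscle isoform, held 0.826% of its pair with COX7A2 with CAF-PAI-1 and 0.675% with CAF. COX6B1, COX6A1, COX7A2 and COX8A had log2 fold changes of -0.04, -0.08, 0.02 and -0.11, and neither these nor COX6B2 (-0.39 ± 0.30) and COX7A1 (0.30 ± 0.47) were called.

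Complex V, the ATP synthase, had 19 tested members and the lowest median of the 5 complexes, -0.040, and its summed level averaged 2244 ± 75.7 CPM with CAF-PAI-1 and 2333 ± 78.2 CPM with CAF (SD, n = 3 each), with overlap. ATP5F1B, the catalytic beta subunit, had 871, 885 and 872 CPM with CAF-PAI-1, against 908, 945 and 918 CPM with CAF. The groups did not overlap, and the log2 fold change of -0.08 ± 0.051 was not called (adjusted p = 0.271, edgeR). Among the subunit groups, the F1 head had a median of 0.0064, the peripheral stalk -0.10 and the c ring -0.10, with ATP5MC2 of the ring just short of the threshold at -0.16 (adjusted p = 0.0537, edgeR). The highest value was that of ATP5F1E, the epsilon subunit, at 0.17 (adjusted p = 0.105, edgeR). The called gene of this complex, ATP5IF1 (ENSG00000130770, chr1:28236109-28246906), is not a structural subunit but the inhibitor that blocks the synthase from running in reverse. It had 35.6, 41.0 and 37.9 CPM with CAF-PAI-1, against 45.1, 46.2 and 43.0 CPM with CAF. All CAF-PAI-1 libraries lay below all CAF libraries, and ATP5IF1 fell by 0.23 ± 0.077 on the log2 scale (14.8% lower; adjusted p = 0.0197, edgeR). The call was lost without CAF-PAI-1 replicate 1 or 3 and without CAF replicate 1 or 2.

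Per kb of transcript, ATP5F1B had the highest level of all members at 489 CPM per kb, followed by UQCRH at 255 and COX4I1 at 245. At the other end stood subunits that every complex I particle needs. NDUFV2, a core iron-sulfur subunit, had 146 counts over all 6 libraries and 1.72 CPM per kb, while NDUFV1, its partner in the same module, had 93.8 CPM per kb. A pseudogene of NDUFV2 held 224 counts. In the GENCODE release 29 annotation 84.7% of the coding bases of NDUFV2 lie inside same-strand exons of another gene entry, itself with 0 counts. Over 50% of coding bases were overlapped in this way in 13 members, whose median level was 4.0 CPM per kb, against 55.6 CPM per kb for the other 76. The 13 include a readthrough entry, ATP5MF-PTCD1 (0.0045 CPM per kb), and the testis isoform COX6B2 (1.27 CPM per kb), which lower that median. NDUFA7, with 78.3% overlap, had 0.566 CPM per kb and failed the filter, and NDUFA13, with 55.2%, had 1.60. The overlapping entries held 5 counts for NDUFA7 and 301 for NDUFA13, against 31 and 144 counts of these members themselves. Others were not low: COX8A, with 55.1%, had 184 CPM per kb, COX6A1, with 53.5%, had 67.6, and ATP5PO, with 62.6%, had 36.8. None of the 5 called members is among the 13, and the median log2 fold change of the members without them was 0.0061. The part that read assignment has in these low levels was not tested.

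Besides NDUFA7, the members that failed the filter were COX4I2, COX6A2, COX7B2, COX8C, ATP5MGL and ATP5MF-PTCD1, a readthrough transcript of 2 genes.

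**Figure D3:**
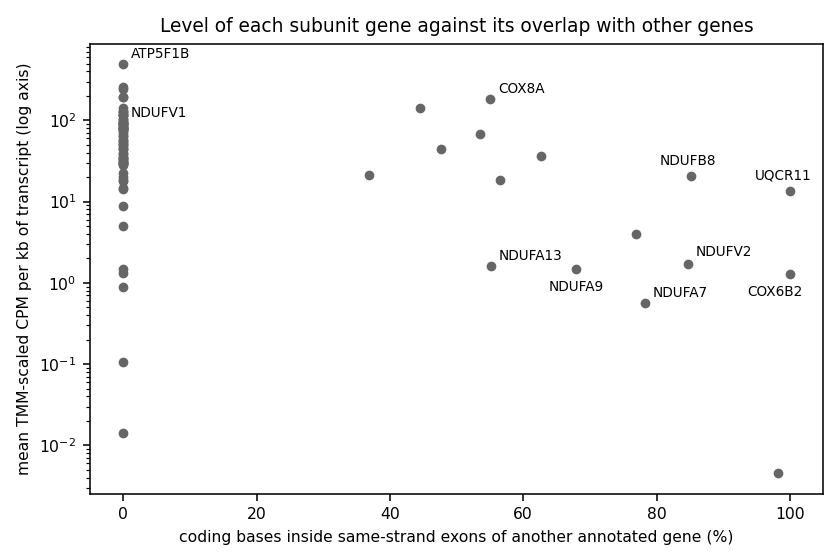
Mean level per kb of transcript over the 6 libraries (log axis) against the share of coding bases that lie inside same-strand exons of another annotated gene, for the 86 members with at least 1 count. NDUFV2, NDUFA7, NDUFA9 and NDUFA13 lie under 2 CPM per kb, while COX8A at 55.1% overlap and NDUFV1 without overlap lie above 90. NDUFA9 averaged 12.2 CPM, and its level per kb is taken over a long main transcript of 8363 bases.

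The nuclear members and the mitochondrially encoded subunits of each complex were set side by side. The nuclear sum of complex III leaves out CYC1, which the symbol rule does not cover. Nuclear-encoded complex I subunits summed to 2024, 2241 and 2138 CPM with CAF-PAI-1, against 2077, 2202 and 2126 CPM with CAF. Their mitochondrially encoded partners summed to 18857, 10976 and 17267 CPM with CAF-PAI-1, against 19639, 20666 and 21429 CPM with CAF. The nuclear sums overlapped, while all 3 mitochondrial sums with CAF-PAI-1 lay below those with CAF and replicate 2 lay far below the rest. The nuclear to mitochondrial ratio of complex I was 0.107, 0.204 and 0.124 with CAF-PAI-1, against 0.106, 0.107 and 0.0992 with CAF. Of the 13 mitochondrially encoded subunits, all had negative log2 fold changes (median -0.35), and MT-CO1, MT-CO2 and MT-CO3 of complex IV were called lower, at -0.18, -0.24 and -0.19, 23.1% of the list where 15% of all genes were. The count of 3 was 11 with limma-voom, 9 without robust estimation and 5 with library size alone. Of all genes, 14.7%, 14.9% and 21.3% were called lower in these fits. Without CAF-PAI-1 replicate 2 the test called 8 of the 13 lower, 5 without CAF-PAI-1 replicate 1, and 1 without CAF-PAI-1 replicate 3, CAF replicate 2 or CAF replicate 3. With single libraries left out, 11.95% to 14.4% of all genes were called lower.

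**Figure D4:**
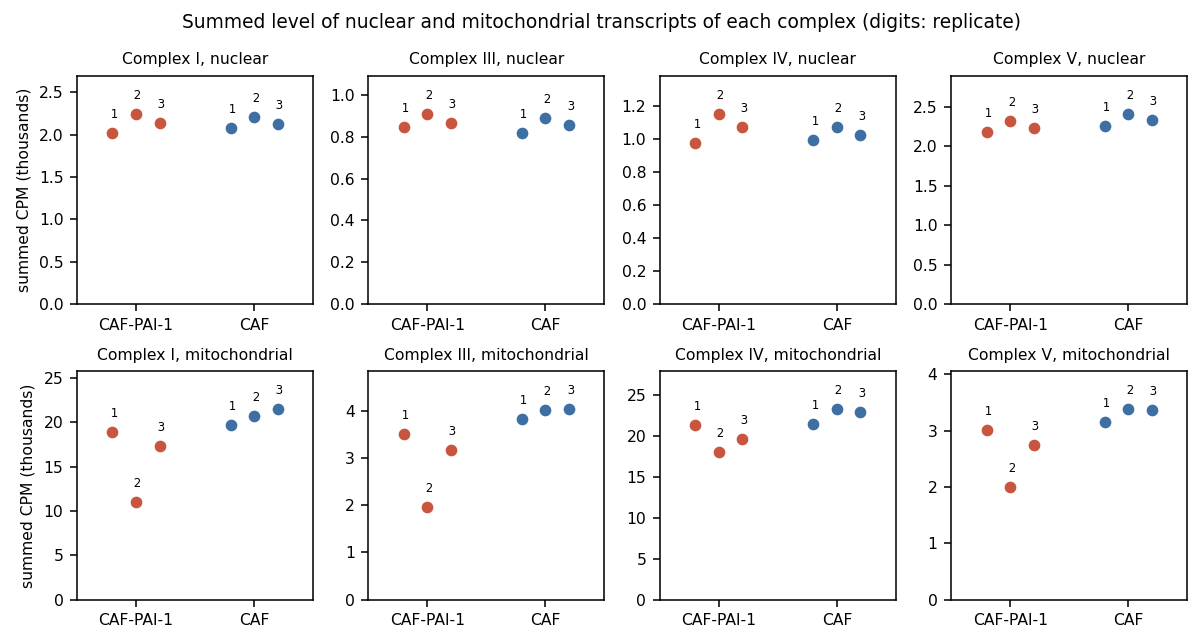
Summed TMM-scaled CPM, divided by 1000 on the axes, of nuclear members (top) and mitochondrially encoded subunits (bottom) of complexes I, III, IV and V in each library, numbered by replicate. Nuclear sums overlap between CAF-PAI-1 and CAF in each complex, and CAF-PAI-1 replicate 2 is the lowest library in each mitochondrial sum, for complex I at 10976 CPM.

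Assembly factors, which build the complexes but are not part of them, changed in both directions. Of 54 tested factors, 8 (14.8%) were called higher and 5 (9.26%) lower, shares below the 17.2% and 15% of all genes, with a median log2 fold change of -0.023. With library size alone 4 were called higher and 7 lower, where 12.3% and 21.3% of all genes were. For complex I, NDUFAF4 (0.54 ± 0.12) and NDUFAF2 (0.35 ± 0.11) rose, while ECSIT fell by 0.31 and TMEM126B fell by 0.21 on the log2 scale. SDHAF2, which helps attach the flavin to SDHA, rose by 0.44. For complex III, TTC19 rose by 0.35, to 132 ± 2.76 CPM with CAF-PAI-1 against 104 ± 3.38 CPM with CAF, and LYRM7 and UQCC2 fell by 0.25 and 0.23. For complex IV, COA7 rose by 0.36, COA4 by 0.23 and the copper chaperone SCO1 by 0.22, while COA5 fell by 0.39, and for complex V TMEM70 rose by 0.24. NDUFAF4, TTC19, COA7 and COA5 kept their calls in all 16 alternatives, SDHAF2 and SCO1 in 15, and NDUFAF2 and COA4 in 14. ECSIT and TMEM126B kept theirs in 11, UQCC2 and TMEM70 in 10 and LYRM7 in 8, each losing it with DESeq2. The number of lower calls was between 1 and 6 when single libraries were left out, where 11.95% to 14.4% of all genes were called lower.

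Outside the symbol rule, cytochrome c (CYCS) rose by 0.19, to 332 ± 23.1 CPM with CAF-PAI-1 against 291 ± 8.94 CPM with CAF. CYC1, the cytochrome c1 subunit of complex III, which the rule also misses, was not called at 0.04. In ubiquinone synthesis, 1 of 13 genes was called higher (PDSS1, which makes the side chain, at 0.53) and 1 lower (COQ8A at -0.42). Of 18 genes of pyruvate dehydrogenase and the citric acid cycle, 5 (27.8%) were called lower and 0 higher, where 15% and 17.2% of all genes were, with a median of -0.084. With library size alone 9 were called lower, where 21.3% of all genes were. At an unadjusted p under 0.05 and by DESeq2 there were also no higher calls in that list. The pyruvate dehydrogenase subunits DLAT, PDHX and PDHB fell by 0.23, 0.25 and 0.22 on the log2 scale, and isocitrate dehydrogenase IDH2 fell by 0.22. DLAT had 109, 106 and 105 CPM with CAF-PAI-1, against 126, 122 and 128 CPM with CAF, without overlap, and kept its call in all 16 alternatives. PDHA1, the catalytic subunit, was not called at 0.02. Without CAF-PAI-1 replicate 3 or CAF replicate 2 the count of lower calls was 2, and without CAF replicate 3 it was 3. In those fits 12.2% to 12.3% of all genes were called lower.

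Regulators of respiratory genes changed in both directions. Of 13 tested, 5 (38.5%) were called higher and 1 (7.69%) lower, where 17.2% and 15% of all genes were, with a median of 0.078. The counts were 4 and 2 with library size alone, where 12.3% of all genes were called higher and 21.3% lower. They were 5 and 2 with upper-quartile scaling, where 15.5% and 16.7% of all genes were. PPRC1, a coactivator of the PGC-1 family, had 173, 167 and 161 CPM with CAF-PAI-1, against 105, 96.9 and 102 CPM with CAF, and rose by 0.72 ± 0.058 (adjusted p = 5.58e-12, edgeR). The related PPARGC1B had 10.4, 8.57 and 10.7 CPM with CAF-PAI-1, against 6.01, 4.22 and 6.40 CPM with CAF, and rose by 0.84 ± 0.16. Neither gene's groups overlapped, and both kept their calls in every alternative that tested them. GABPB1, the beta chain of the ETS-family factor GABP (also called nuclear respiratory factor 2), rose by 0.46, the receptor ESRRA by 0.32 and the mitochondrial transcription factor TFB2M by 0.26. YY1, a zinc-finger factor, fell by 0.25 on the log2 scale, to 108 ± 3.22 CPM with CAF-PAI-1 against 129 ± 4.0 CPM with CAF. GABPA (-0.15), the transcription factor NRF1 (0.08), TFAM (0.05), which packages mitochondrial DNA, and PPARGC1A were not called. PPARGC1A, the third coactivator of the PGC-1 family, had 2.64, 2.25 and 2.59 CPM with CAF-PAI-1, against 3.34, 3.34 and 3.16 CPM with CAF, a log2 fold change of -0.39 ± 0.23 (adjusted p = 0.207, edgeR), without overlap and opposite in sign to its relatives.

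**Figure D5:**
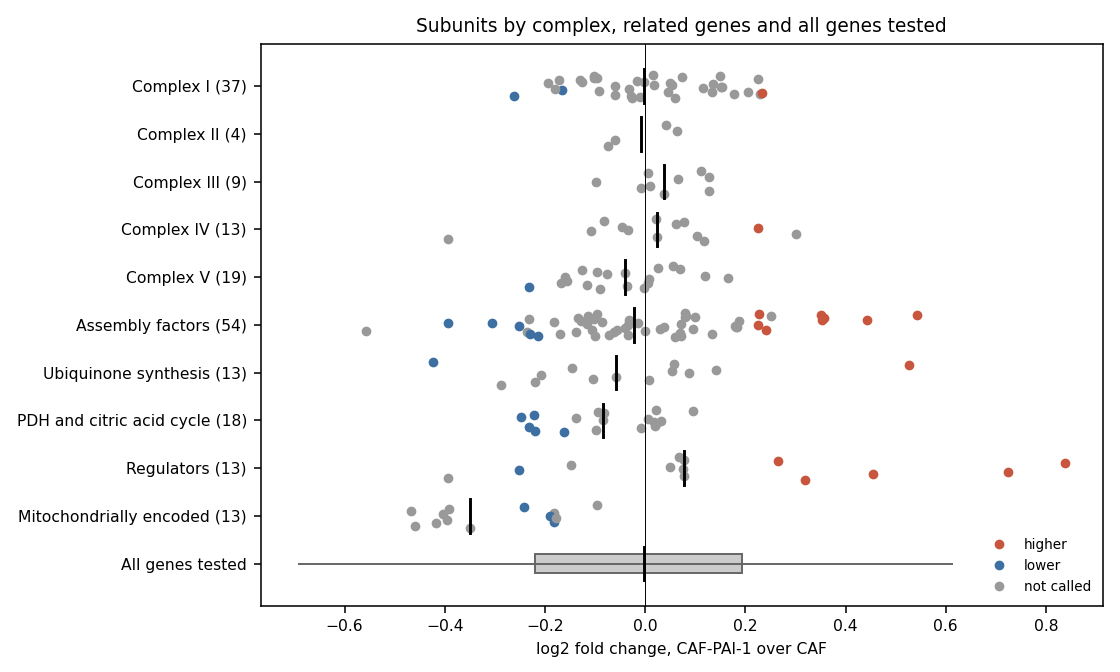
Log2 fold change of CAF-PAI-1 over CAF (horizontal axis) for each tested gene, coloured by call, with black lines at the medians and the number of genes tested in brackets. The bottom row shows all genes tested as a box from the 25th to the 75th percentile with a line from the 5th to the 95th. Regulators reach 0.84 and assembly factors 0.54, whereas no called subunit passes 0.26 in size.

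Promoters of 3 members are shown because they carry the DNA motifs of these regulators, each of which had its own transcript measured above. They are RefSeq sequences on GRCh38.p14, 5′ to 3′ on the gene's strand, from 180 bases before to 30 bases after the RefSeq start, with the motifs in capitals.
SDHA: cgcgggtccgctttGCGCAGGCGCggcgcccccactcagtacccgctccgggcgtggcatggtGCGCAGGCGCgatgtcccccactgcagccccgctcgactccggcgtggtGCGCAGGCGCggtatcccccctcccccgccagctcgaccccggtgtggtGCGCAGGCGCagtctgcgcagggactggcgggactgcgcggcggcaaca
SDHB: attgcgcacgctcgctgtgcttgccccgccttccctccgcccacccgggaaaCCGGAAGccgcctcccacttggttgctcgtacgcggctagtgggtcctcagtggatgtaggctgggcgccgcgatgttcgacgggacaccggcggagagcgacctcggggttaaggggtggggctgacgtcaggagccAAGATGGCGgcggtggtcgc
COX4I1: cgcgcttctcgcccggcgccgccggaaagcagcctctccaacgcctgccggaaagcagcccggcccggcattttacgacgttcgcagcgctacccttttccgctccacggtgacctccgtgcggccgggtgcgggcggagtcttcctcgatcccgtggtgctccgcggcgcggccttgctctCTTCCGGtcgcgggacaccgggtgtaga
The SDHA window (chr5:218140-218349, plus strand) holds 4 matches to the NRF1 motif, GCGCA followed by any base and GCGC, the SDHB window (chr1:17054003-17054212, minus strand) holds an ETS motif CCGGAAG and a YY1 motif AAGATGGCG, and the COX4I1 window (chr16:85799515-85799724, plus strand) holds the ETS motif on the opposite strand. SDHA, SDHB and COX4I1 had log2 fold changes of -0.07, 0.06 and 0.12, and none was called.

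Promoter sequences, from 250 bases before to 50 after the start, were matched by symbol for 70 of the 89 members and searched on both strands. The NRF1 motif occurred in 17 of them (24.3%), against 6.98% of 27305 genes, the ETS motif in 21 (30%), against 12.2%, and the YY1 motif in 9 (12.9%), against 2.14%. The 27305 are all genes with a promoter sequence, not matched to the members in expression or base content. A gene with several promoter sequences counted if any of them matched. At least 1 of the 3 motifs was found in 40 members (57.1%), and these counts include 7 members with more than 1 kind. Median log2 fold changes of tested members with and without the motif were 0.0063 and -0.0014 for NRF1, 0.025 and -0.010 for ETS, and 0.058 and -0.014 for YY1. Of the 5 called members, 3 had a promoter sequence to search (COX7A2L, NDUFA2 and ATP5IF1), and these held no match. A match describes the letters in the window and is not evidence of binding.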

How the data were processed

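The members and related gene lists were chosen with earlier results of these data known, so no list-level test was run. The authors deposited gene counts, all whole numbers, for each of the 6 libraries. Per the submitters' processing notes, RSEM, BWA, Bowtie2 and hg19 were used, with no versions or roles, while all 58735 gene identifiers are those of GENCODE release 29 on GRCh38, whose coordinates are given here. The sources used here do not give the handling of shared reads or strand.

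Counts were tested with edgeR 4.0.16 (R 4.3.3; filterByExpr, minimum count 10 and total 15; TMM; robust quasi-likelihood) over 14960 genes, CAF-PAI-1 minus CAF, with Benjamini-Hochberg adjustment at 0.05. A run of the procedure on simulated data used changes of 1.5-fold or more. No member's estimate was that large, so the run does not bear on the member calls. Library totals of 13628508 to 16006880 and a common biological variation of 6.06% set the precision. Standard errors are the log2 fold change over the root of the F statistic. The 95% intervals use the test's total degrees of freedom, about 32.5 for NDUFA1. These add the degrees gained from variance moderation over all genes to the residual ones. Overlap used same-strand exons of GENCODE 29, and level per kb used 1 main transcript a gene. Named members were those called, the highest CPM and the extreme fold changes of each complex, SDH genes, isoform pairs, members that failed the filter and called genes of related lists with the smallest p. Other genes just short of the threshold, without overlap or serving as examples were chosen after their values were seen. Alternatives covered scaling, filters, DESeq2 1.42.0, limma-voom 3.58.1, a replicate block and each library left out. Some results are not reported here.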

Additional observations from a re-analysis of the deposited data

How the results depend on the processing

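Medians over all members and over complexes I, III and IV moved by less than the spread between replicates in all alternatives, though their signs, close to 0, were not fixed (all members -0.06 to 0.02). The median of complex II was -0.075 with library size alone and between -0.054 and 0.020 with single libraries left out, and that of complex V was -0.11 with library size alone. Members called higher numbered 0 with library size alone and between 2 and 5 with single libraries left out. Members called lower numbered 15 with library size alone, 7 with upper-quartile scaling or a mean of at least 10 CPM, 1 with no filter and between 0 and 13 with single libraries left out. Among the 30170 genes tested with no filter, 6.72% were called lower. Where 10 CPM was required, 21.4% of the 9610 genes tested were called lower. No called member changed direction. With the replicate number as a block, 3 members were called higher and 6 lower, where 18.1% of all genes were called higher and 15.8% lower. Same-numbered libraries deviated together at correlations of only 0.007, 0.057 and 0.007, and not every library correlated best with its own number. No pairing by number was seen, but correlations over all genes with 3 libraries a group cannot exclude a weak one. The same alternatives were applied to the related lists after the data were seen. Library size alone gave 4 assembly factors higher, 9 genes of pyruvate dehydrogenase and the citric acid cycle lower, 5 mitochondrially encoded subunits lower and 2 regulators lower. Regulators called lower were also 2 with upper-quartile scaling or a mean of at least 10 CPM. Assembly factors called lower were 1 with DESeq2 or with no filter, and mitochondrially encoded subunits called lower were 11 with limma-voom and 9 without robust estimation. Of all genes, 12.8% were called lower with DESeq2, 14.7% with limma-voom and 14.9% without robust estimation. The shares of all genes in the other fits are those given above beside the members. With single libraries left out, the lower calls ran from 1 to 6 for assembly factors, 2 to 4 for the citric acid cycle list, 1 to 8 for mitochondrially encoded subunits and 1 to 2 for regulators. The cause of these shifts was not tested.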
